A study of Homo sapiens with 10 samples.

Results

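The 10 genes described here, OTX2, PAX6, RPE65, RLBP1, BEST1, SERPINF1, TIMP3, EFEMP1, KRT8 and KRT18, are used to recognize the retinal pigment epithelium (RPE). They were chosen by symbol and not by a rule on measured values, though with earlier results of these data known. All 10 had a row among the 28380 genes of the deposited count table. The RNA came from RPE-1, a single telomerase-immortalized line of human RPE cells, plated below confluence in DMEM with serum. The cells were exposed for 4 h either to the vehicle DMSO or to 25 µM sulforaphane (SFN), an isothiocyanate found in cruciferous vegetables. Each treatment had 5 libraries. The methods name a library kit that reads the tail end of transcripts, while the labels mention only Illumina preparation. The methods describe replicates of cells for each treatment, but no label says which libraries came from separate cultures, so the p-values measure the spread between these libraries, part of which may be technical.

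The RPE is a pigmented, polarized monolayer between the photoreceptors and the choroid. It regenerates the visual chromophore, takes up shed photoreceptor outer segments, transports nutrients and lays down part of Bruch's membrane. OTX2 and PAX6, together with MITF, specify the tissue in the optic vesicle, and the mature cell is recognized by visual cycle enzymes, the channel BEST1, secreted proteins such as PEDF (SERPINF1) and the simple epithelial keratins KRT8 and KRT18.

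Before SFN, RPE-1 cells carried reads for 7 of the 10 genes and almost none for RPE65, RLBP1 and SERPINF1. With SFN, OTX2 fell by 0.64 on the log2 scale and EFEMP1 rose by 0.37, with no overlap between the groups for either gene, a separation found in 19.9% of all genes tested. The other 5 genes that could be tested, PAX6, BEST1, TIMP3, KRT8 and KRT18, did not pass the test. Thus 2 of 7 tested members were called at an adjusted p under 0.05, where edgeR's quasi-likelihood test, with p-values adjusted by the Benjamini-Hochberg method, called 23.0% of all 13378 genes tested. Neither called member changed by over 2-fold, the further limit that the study set for a differentially expressed gene. That stricter limit was passed upwards by 2.94% and downwards by 5.76% of all genes tested. The p-values were adjusted over all genes tested, and a log2 fold change is SFN minus DMSO throughout.

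The total count ran from 15689294 to 20666692 among the DMSO libraries and from 12375860 to 17308706 among the SFN libraries. Levels are given as CPM, the counts per 1000000 reads after scaling the libraries by the TMM method. DMSO replicate 1 stood apart from the other libraries, with a TMM factor of 0.886 against 1.06 to 1.08 in the other 4 DMSO libraries, and SFN replicate 2 had the lowest total count of all. Leaving out DMSO replicate 1 raised the number of genes called from 3076 to 6251, or 46.1% of those tested, so results that rest on it are given both ways. RNA was pooled over all cells of a library, so fewer cells expressing a gene and less RNA per cell cannot be told apart.

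The stretch before the transcription start is shown for 3 members: OTX2, which fell, PAX6, the other specifier of the optic vesicle, and RPE65, which had no read in DMSO. Each is the 250 bases before a RefSeq start on GRCh38.p14, printed 5′ to 3′ on the gene's strand, which is the minus strand for all 3, with matches to the motifs searched in capitals.
OTX2, chr14:56810480-56810729: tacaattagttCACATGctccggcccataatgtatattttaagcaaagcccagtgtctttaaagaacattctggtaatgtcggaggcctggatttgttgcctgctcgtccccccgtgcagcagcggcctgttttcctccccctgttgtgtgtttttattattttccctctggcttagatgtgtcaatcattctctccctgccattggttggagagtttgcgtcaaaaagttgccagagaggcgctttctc
PAX6, chr11:31817962-31818211: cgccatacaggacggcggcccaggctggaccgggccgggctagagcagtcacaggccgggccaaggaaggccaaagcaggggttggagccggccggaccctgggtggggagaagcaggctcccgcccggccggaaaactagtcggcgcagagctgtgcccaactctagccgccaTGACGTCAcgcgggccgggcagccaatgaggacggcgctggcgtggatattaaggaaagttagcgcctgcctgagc
RPE65, chr1:68449955-68450204: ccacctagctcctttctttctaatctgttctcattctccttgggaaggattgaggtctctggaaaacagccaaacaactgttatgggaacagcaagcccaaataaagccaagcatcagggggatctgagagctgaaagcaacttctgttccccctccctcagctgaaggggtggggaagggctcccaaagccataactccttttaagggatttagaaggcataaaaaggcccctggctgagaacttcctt
None of these bases lay in an annotated exon of GENCODE 44. The OTX2 stretch lies in an intron of the longer GENCODE gene model, and the PAX6 and RPE65 stretches lie just outside their genes.

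The motifs were searched on both strands. They were the OTX core TAATCC, the M-box CATGTG that MITF is known to bind, the E-box CACGTG, the AP-1 site TGACTCA, the cyclic AMP response element TGACGTCA, the antioxidant response core TGACNNNGC, the amino acid response core TGATGNAA and the TATA box TATAAA. Letters can be shared between the AP-1 site and the antioxidant response core, and between the M-box on either strand. The capitals in OTX2 are the M-box read on the other strand, starting 239 bases before the start, a motif found in 9.42% of all 35116 windows of this length. Those in PAX6 are the cyclic AMP response element, 76 bases before the start, found in 1.65% of all windows. The RPE65 stretch held none of the 8 motifs. RefSeq windows were at hand for 6 of the 10 members, 15 windows in all. The OTX core, found in 5.62% of all windows, matched among them in RLBP1, 61 bases before the start. An M-box also matched in RLBP1 and in inner PAX6 windows. The antioxidant response core, found in 10.9% of all windows, matched 114 bases before the start in an inner PAX6 window, and no motif matched in the windows of KRT8 and TIMP3 or in the inner OTX2 window. A match is a run of letters and not a binding site.

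The DMSO levels of the members spanned several orders of magnitude. Counts of 3′ tags do not grow with transcript length the way whole-transcript reads do, so levels are compared between genes both as CPM and as CPM per kilobase of the canonical transcript, and the order was the same on both scales. Per kilobase, KRT8 was highest, with a mean of 215 CPM and a range of 177 to 297 over the 5 DMSO libraries. KRT18 followed with 138 and a range of 122 to 170, then EFEMP1 with 33.4 and a range of 31.3 to 36.3, and PAX6 with 17 and a range of 15.8 to 18.4. None of these ranges overlapped with the next. BEST1 had a mean of 8.51 CPM per kilobase but a range of 2.45 to 18.9, which took in both its neighbours, PAX6 above and OTX2 below, so its place was not settled on this scale. As CPM, BEST1 (at most 41.8) lay below PAX6 (at least 43.3) in all DMSO libraries and still overlapped with OTX2. OTX2 had 4.66, with a range of 4.01 to 5.88, and TIMP3 had 0.912, with a range of 0.786 to 1.13. RLBP1, SERPINF1 and RPE65 came last, at 0.0296, 0.0156 and 0, and could not be ordered, since each had libraries without a read. Among all genes with a row and a transcript length, the DMSO level per kilobase of KRT8 lay at the 99.0th percentile and that of EFEMP1 at the 92.7th. That of PAX6 lay at the 87.0th, that of OTX2 at the 72.4th and that of RLBP1 at the 24.6th. As CPM, without division by length, the percentiles of these genes in the same order were 98.5, 91.5, 85.0, 72.1 and 30.9 among all genes with a row.

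**Figure D1:**
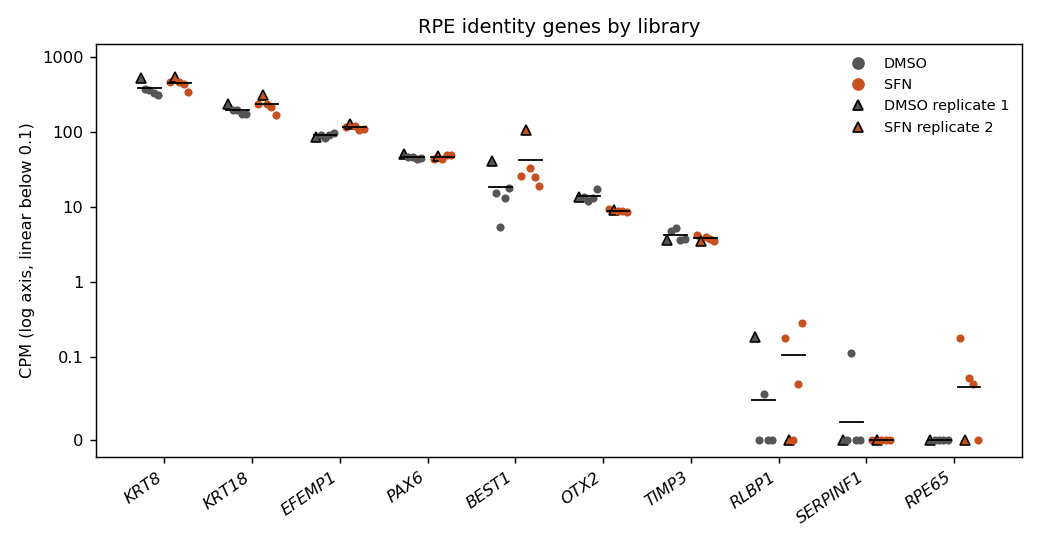
Level of the 10 RPE identity genes in each library, as CPM on an axis that is logarithmic above 0.1 and linear below it. Points are libraries, with DMSO replicate 1 and SFN replicate 2 as triangles, and bars are group means. The SFN points of OTX2 (8.69 to 9.36) lie below all DMSO points (12.1 to 17.7), those of EFEMP1 (107 to 129) lie above all DMSO points (84.7 to 98.3), and RLBP1, SERPINF1 and RPE65 lie near 0.

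The label of the line was also checked against other genes of the tissue. A mean DMSO level of at least 1 CPM was reached by 6 of 16 transcription factors of the eye field and RPE, 7 of 14 genes of pigment synthesis, 6 of 14 of retinoid handling and 15 of 22 of transport, phagocytosis and contact. Among those present were EZR at 1001 CPM, ITGAV at 535 CPM, RDH11 at 149 CPM and RAB27A at 71.9 CPM, all of which other cells express too. Of 14 genes of pigment synthesis, TYR, DCT, MLANA and OCA2 had no row and so no read, and TYRP1 had 5 reads in the 10 libraries. The RPE channel KCNJ13, the tight junction protein CLDN19 and the lactate transporter SLC16A8 had none either, and the same held for the retinoid receptor STRA6. MITF, the master regulator of pigment cells, was present at 50.8 ± 4.95 CPM in DMSO (SD, n = 5), and SOX9, a cofactor of RPE gene expression, at 67.6 ± 4.90 CPM. RPE-1 thus carried OTX2, PAX6, MITF, SOX9 and the keratins, while RPE65, RLBP1, SERPINF1 and the pigment enzymes TYR, DCT and TYRP1 were at or near 0. Mesenchymal and epithelial lists were each present in part, with 15 of 19 mesenchymal genes and 7 of 20 epithelial junction genes at a mean of at least 1 CPM. FN1 (fibronectin) had 8367 ± 2511 CPM and VIM (vimentin) 5688 ± 289.6 CPM in DMSO (SD, n = 5), while COL1A2 had 12 reads and COL3A1 had 9 in all libraries. DSP (desmoplakin) had 402 ± 129.6 CPM and TJP1 (ZO-1) 119 ± 33.6 CPM, while CDH1, the epithelial cadherin, had no row.

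OTX2 encodes a homeodomain factor required for RPE and photoreceptor specification. It lies on chr14:56799905-56816693 (GRCh38, minus strand), and its canonical transcript has 5 exons. The DMSO libraries 1 to 5 gave 13.5, 13.6, 12.1, 13.3 and 17.7 CPM, from 216 to 299 reads each. The SFN libraries 1 to 5 gave 9.36, 9.23, 8.79, 8.97 and 8.69 CPM, from 107 to 157 reads each. All SFN libraries were below all DMSO libraries, and the SFN libraries lay within a narrow band while DMSO replicate 5 was the highest of all. A complete separation of this kind in the downward direction was seen in 11.1% of all genes tested. OTX2 fell by 35.8%, with a log2 fold change of -0.64 ± 0.12 (SE), a 95% interval of -0.91 to -0.37 and an adjusted p of 0.00288 by edgeR's quasi-likelihood test. A decrease at an adjusted p under 0.05 was called in 13.9% of all genes tested. Without DMSO replicate 5 the log2 fold change was -0.54, with an adjusted p of 0.00643 by the same test. The antisense gene OTX2-AS1 overlaps 3511 bases of OTX2 but no canonical exon, and at most 7 reads were counted for it in a library.

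PAX6 encodes the paired homeodomain factor of the optic vesicle, and it lies on chr11:31784779-31817961 (minus strand). Its DMSO libraries 1 to 5 gave 50.6, 47.2, 47.1, 43.3 and 45 CPM. Its SFN libraries gave 44.2, 48.5, 43.3, 49.3 and 49.4 CPM. The groups covered almost the same range, from 43.3 CPM up. The log2 fold change was 0.01 ± 0.09 (SE), with an adjusted p of 0.959 by edgeR's quasi-likelihood test, and its 95% interval of -0.19 to 0.21 spans from 12.6% lower to 15.9% higher. The 3′ part of PAX6 is covered from the opposite strand by ELP4, a subunit of Elongator, over 994 bases of canonical PAX6 exons. ELP4 had 104 to 226 reads per library against 562 to 1036 for PAX6, and its log2 fold change was -0.19 ± 0.12 (SE), with an adjusted p of 0.308 by the same test. Whether strand was used in the counting is not given in the sources used here, so reads in the shared bases cannot be assigned further. The antisense gene PAX6-AS1, which overlaps PAX6 outside its canonical exons, had at most 2 reads in a library.

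RPE65 and RLBP1 carry out the visual cycle. RPE65, the isomerohydrolase that makes 11-cis retinol, lies on chr1:68428822-68449954 (minus strand). RPE65 had no read in any DMSO library and 3, 0, 1, 1 and 0 reads in the SFN libraries 1 to 5. Over the group, 0 of 86908717 DMSO reads allows a level of up to 0.0345 CPM, and the SFN reads were too few for a test. RLBP1 encodes CRALBP, which carries the 11-cis retinoids, and lies on chr15:89209869-89221614 (minus strand). Its reads numbered 3, 0, 1, 0 and 0 in DMSO and 3, 0, 0, 1 and 4 in SFN. The SFN mean was 0.0572 CPM higher, and an exact two-sided permutation test over the 5 and 5 libraries gave p = 0.405, where 0.0079 is the smallest p the design allows. No difference in RLBP1 was detectable at this depth.

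Other genes of retinoid handling were measurable. Of 14 in the list, 12 had a row and 8 could be tested, with a median log2 fold change of -0.09 against -0.03 over all genes tested. None was called higher and 1 lower, against 9.07% and 13.9% of all genes tested. The gene called was RARB, a retinoic acid receptor that retinoic acid itself induces, which went from 24.2 ± 5.64 to 12.9 ± 1.42 CPM (SD, n = 5), a log2 fold change of -0.91 ± 0.18 (SE) with an adjusted p of 0.00297 by edgeR's quasi-likelihood test. Its groups did not overlap, as in 11.1% of all genes tested in that direction, but they almost touched. DMSO replicate 1 had 14.45 CPM of RARB and SFN replicate 4 had 14.44 CPM, while the other 4 DMSO libraries had 24.3 to 27.7 CPM. With DMSO replicate 1 left out, RARB had a log2 fold change of -1.055 and an adjusted p of 3.07e-06 by the same test. The retinol dehydrogenases RDH11, at 149 ± 94.6 CPM in DMSO, and RDH10, at 16.1 ± 1.83 CPM, were not called. DMSO replicate 1 had 318 CPM of RDH11 and the other 4 DMSO libraries 102 to 111 CPM. Without DMSO replicate 1, RDH11 had a log2 fold change of 0.41 with an adjusted p of 0.00298 by the same test. The list then held 1 gene called higher and 1 lower, against 22.5% and 23.5% of all genes tested. Its median was then 0.10, against -0.003 over all genes tested, so its sign also rested on this library.

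BEST1 encodes bestrophin 1, the calcium-activated chloride channel of the basolateral RPE membrane that is altered in Best vitelliform macular dystrophy. It lies on chr11:61950063-61965515 (plus strand). The DMSO libraries 1 to 5 gave 41.8, 15.5, 5.42, 13.1 and 18.2 CPM, and the SFN libraries 26.2, 107, 33.4, 25.4 and 19.4 CPM. The groups overlapped through DMSO replicate 1, which was above 4 of the SFN libraries, and SFN replicate 2 was far above all others. The log2 fold change was 1.17 ± 0.56 (SE), with a 95% interval of -0.05 to 2.39 and an adjusted p of 0.163 by edgeR's quasi-likelihood test, so the difference did not exceed the spread between libraries. Both libraries that stood apart moved it. Without SFN replicate 2 the log2 fold change was 0.49 with an adjusted p of 0.514, and without DMSO replicate 1 it was 1.68 with an adjusted p of 0.00961, both by edgeR. Without both it was 1.0 with an adjusted p of 0.00364 by the same test, an alternative added after the data were seen.

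BEST1 shares 5798 bases with FTH1, which encodes the ferritin heavy chain and lies on the opposite strand, and 177 of these bases are in canonical BEST1 exons. FTH1 had 66150, 42079, 32462, 30743 and 30531 reads in the DMSO libraries and 51078, 51695, 39047, 42290 and 30183 in the SFN libraries. The BEST1 count amounted to 0.299% to 1.02% of the FTH1 count in DMSO and to 0.861% to 2.41% in SFN. DMSO replicate 1 had the most FTH1 reads, and SFN replicate 2 the highest share of BEST1 to FTH1. FTH1 itself had a log2 fold change of 0.42 ± 0.27 (SE), with an adjusted p of 0.299 by edgeR's quasi-likelihood test. This fit includes DMSO replicate 1, with 4119 CPM of FTH1 against 1807 to 1917 CPM in the other DMSO libraries. The SFN libraries had 2131 to 4460 CPM of FTH1. Its log2 fold change without DMSO replicate 1 is not given here, unlike that of BEST1. The part that FTH1 reads play in the BEST1 counts was not tested.

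**Figure D2:**
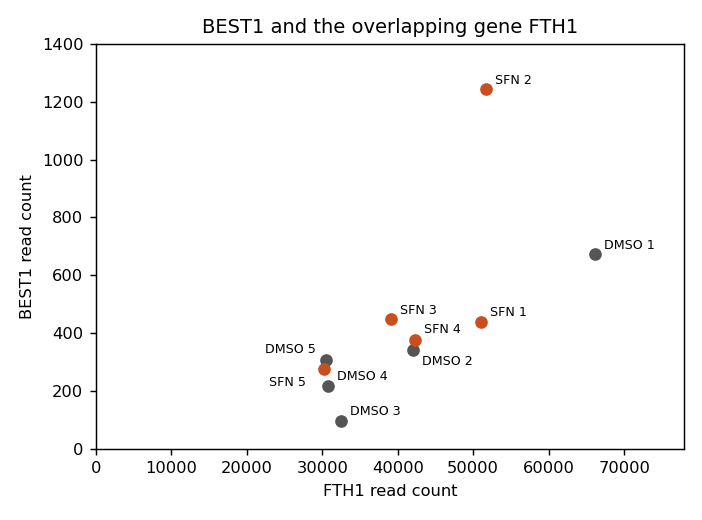
Read counts of BEST1 against those of FTH1, which overlaps it on the opposite strand, with 1 point for each library (grey DMSO, orange SFN). SFN 2, with 1244 BEST1 reads, lies far above the other libraries, which have 97 to 672, and DMSO 1 has the most FTH1 reads (66150).

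SERPINF1, TIMP3 and EFEMP1 encode secreted proteins of the RPE and of Bruch's membrane. SERPINF1, the gene for the anti-angiogenic factor PEDF, lies on chr17:1762029-1777565 (plus strand). SERPINF1 had 2 reads, both in DMSO replicate 3, and no read in SFN, where 0 of 72865637 reads allows up to 0.0412 CPM. This upper limit, like that for RPE65, is 3 reads over the group total and covers counting error only.

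TIMP3 encodes a matrix-bound inhibitor of metalloproteinases and is mutated in Sorsby fundus dystrophy. It lies on chr22:32801705-32863041 (plus strand), wholly within SYN3 on the opposite strand, and SYN3 had 1 read in the 10 libraries. The DMSO libraries 1 to 5 gave 3.61, 4.74, 5.20, 3.61 and 3.79 CPM, and the SFN libraries 4.23, 3.54, 4.02, 3.78 and 3.53 CPM. All SFN values lay within or just below the DMSO range, from 41 to 104 reads per library. The log2 fold change was -0.13 ± 0.16 (SE), with a 95% interval of -0.49 to 0.22 and an adjusted p of 0.613 by edgeR's quasi-likelihood test.

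EFEMP1 encodes fibulin-3, an extracellular glycoprotein mutated in Doyne honeycomb retinal dystrophy, and lies on chr2:55865967-55924139 (minus strand). Its DMSO libraries 1 to 5 gave 86.1, 91.8, 84.7, 92.0 and 98.3 CPM, and its SFN libraries 118, 129, 120.5, 107 and 109 CPM. Every SFN library was above every DMSO library, an upward separation seen in 8.78% of all genes tested. EFEMP1 rose 1.29-fold, with a log2 fold change of 0.37 ± 0.09 (SE), a 95% interval of 0.16 to 0.57 and an adjusted p of 0.0143 by edgeR's quasi-likelihood test. An increase at an adjusted p under 0.05 was called in 9.07% of all genes tested. The call was lost in 3 alternatives, with adjusted p of 0.0998 when libraries were scaled by size alone, 0.0895 without a low-count filter and 0.0642 with the replicate number as a block, all by edgeR, while the log2 fold change stayed between 0.28 and 0.40 in all 19 alternatives.

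Most other genes of this matrix were positive in sign and few were called. Of 23 further TIMPs, fibulins and matrix genes, 22 had a row and 16 were tested. Of these, 2 were called higher, against 9.07% of all genes tested, and none lower, against 13.9%. The log2 fold change was positive in 13 of the 16, with a median of 0.19, and in 6340 of all 13378 genes tested. Leaving out DMSO replicate 1 turned LOXL2 (-0.11), LTBP2 (-0.20) and COL8A2 (-0.20) negative and FBLN7 (0.06) positive. LOX, the lysyl oxidase that cross-links elastin and collagen, went from 342 ± 60.8 to 473 ± 41.9 CPM (SD, n = 5), a log2 fold change of 0.47 ± 0.14 (SE) with an adjusted p of 0.0302 by edgeR's quasi-likelihood test. MMP1, an interstitial collagenase, went from 0.453 ± 0.239 to 1.16 ± 0.203 CPM, a log2 fold change of 1.36 ± 0.36 (SE) with an adjusted p of 0.0186 by the same test. The values of MMP1 rest on few reads, 4 to 13 per DMSO library and 14 to 20 per SFN library. Neither LOX nor MMP1 overlapped between the groups, as in 8.78% of all genes tested in that direction. The most abundant genes, MMP14 with 1164 ± 144 CPM, MMP2 with 929 ± 287 CPM and COL8A1 with 385 ± 24.9 CPM in DMSO, were not called. DMSO replicate 1 had 422 CPM of MMP2 against 1013 to 1133 CPM in the other DMSO libraries. Without this library the median was 0.10, and 5 genes were called higher, against 22.5% of all genes tested, and none lower, against 23.5%. MMP14 was among them, with a log2 fold change of 0.42 and an adjusted p of 0.00285 by edgeR, and MMP2 was not.

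KRT8 and KRT18 encode the pair of keratins that polymerize together into the filaments of simple epithelia. They are neighbours on chromosome 12, KRT8 at chr12:52897187-52949954 (minus strand) and KRT18 at chr12:52948871-52952906 (plus strand), and their spans share 1084 bases. For KRT8 the DMSO libraries 1 to 5 gave 531, 376, 362, 331 and 316 CPM, and the SFN libraries 460.1, 539, 472, 434 and 341 CPM. For KRT18 the DMSO libraries gave 241, 196, 195, 172 and 174 CPM, and the SFN libraries 239.9, 318, 237, 216 and 169 CPM. In both genes the highest values came from replicate 1 in DMSO and from replicate 2 in SFN, and the groups overlapped.

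The log2 fold change of KRT8 was 0.23 ± 0.16 (SE), with a 95% interval of -0.13 to 0.59 and an adjusted p of 0.367, and that of KRT18 was 0.27 ± 0.16 (SE), with a 95% interval of -0.08 to 0.63 and an adjusted p of 0.27, both by edgeR's quasi-likelihood test. Without DMSO replicate 1, KRT8 had 0.37 with an adjusted p of 0.0162 and KRT18 had 0.35 with an adjusted p of 0.0505 by the same test, where 22.5% of all genes tested were called higher. The ratio of KRT8 to KRT18 reads was 1.95 ± 0.153 in DMSO and 1.93 ± 0.133 in SFN (SD, n = 5), with p = 0.825 in an exact two-sided permutation test.

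Both keratins have many processed pseudogenes whose reads the authors' counting could divide. The table held 24 KRT8 pseudogenes with 2231 reads in all, of which KRT8P12 had 1402 and KRT8P3 had 544, and 39 KRT18 pseudogenes with 335 reads. They amounted to 1.90% to 4.96% of the KRT8 count and to 0.409% to 1.47% of the KRT18 count of a library. With their reads added, the log2 fold change was 0.25 for KRT8 and 0.27 for KRT18, and neither was called by edgeR.

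Other keratins were scarcer. Of 16 further keratins, 11 had a row, and KRT5, KRT14 and KRT20 were among those without a read. Of the 6 tested, none was called higher and 1 lower, against 9.07% and 13.9% of all genes tested, with a median of 0.07. That gene was KRT80, which went from 33.2 ± 9.03 to 18.8 ± 2.22 CPM (SD, n = 5), a log2 fold change of -0.82 ± 0.20 (SE) with an adjusted p of 0.0119 by edgeR's quasi-likelihood test. DMSO replicate 1 had 17.4 CPM of KRT80, inside the SFN range of 15.6 to 21.8 CPM, while the other 4 DMSO libraries had 34.7 to 39.4 CPM. KRT10, at 50.4 ± 9.93 CPM, and KRT7, at 27.9 ± 11.8 CPM in DMSO, were not called. With DMSO replicate 1 left out, KRT7 had a log2 fold change of 0.38 and KRT10 of 0.52, with adjusted p of 0.0339 and 0.0101 by edgeR. The list then held 3 keratins called higher and 1 lower, against 22.5% and 23.5% of all genes tested, with a median of 0.19.

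**Figure D3:**
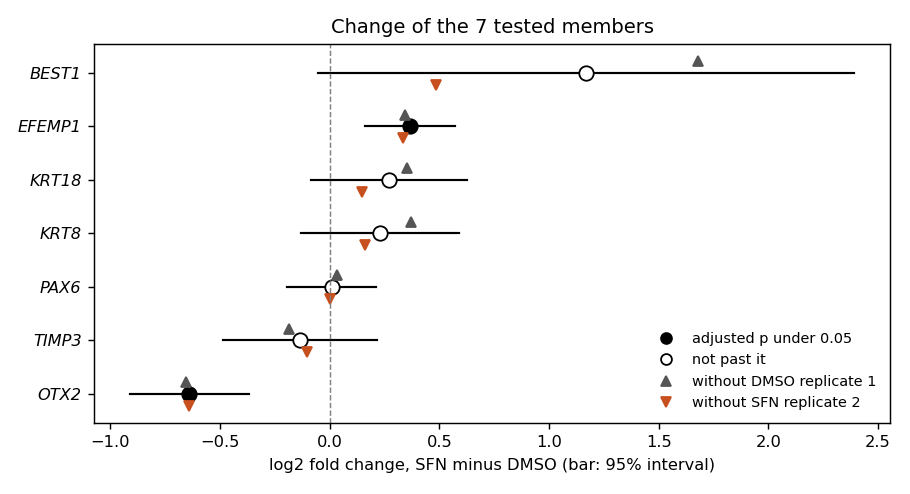
Log2 fold change (SFN minus DMSO) of the 7 members that could be tested, with bars for the 95% interval. Filled circles have an adjusted p under 0.05, and triangles give the value without DMSO replicate 1 (grey, pointing up) or without SFN replicate 2 (orange, pointing down). OTX2 (-0.64) and EFEMP1 (0.37) change little without either library, whereas BEST1 runs from 0.49 to 1.68.

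OTX2 was not alone among the transcription factors of the eye field and the RPE. Of 16 further factors, 12 had a row and 6 could be tested, and of these 5 were called lower in SFN, against 13.9% of all genes tested, and none was called higher, with a median log2 fold change of -1.24. The summed level of the list was 456 to 857.5 CPM in the DMSO libraries and 219.6 to 247.5 CPM in the SFN libraries. Without DMSO replicate 1 the count was again 5 lower and none higher, with a median of -1.08, where 23.5% of all genes tested were called lower. This list, like the others, was chosen with earlier results of these data known. The shares of all genes beside it are therefore a description and not a test. No share over transcription factors alone was taken. In the mesenchymal list, the factors TWIST1 (-1.33), SNAI2 (-1.15) and ZEB1 (-0.98) were also called lower, while TWIST2 and ZEB2 were not called.

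MITF, which drives pigment cell genes and partners with OTX2 at their promoters, gave 47.2, 55.1, 43.9, 53.4 and 54.3 CPM in the DMSO libraries 1 to 5 and 23.9, 18.7, 23.5, 25.6 and 25.3 CPM in the SFN libraries. Its groups did not overlap, as in 11.1% of all genes tested in that direction. The log2 fold change of MITF was -1.12 ± 0.12 (SE), with an adjusted p of 5.27e-05 by edgeR's quasi-likelihood test. SOX9 went from 67.6 ± 4.90 to 26.4 ± 4.60 CPM (SD, n = 5), a log2 fold change of -1.36 ± 0.14 (SE) with an adjusted p of 3.08e-05 by the same test. SIX3, a homeodomain factor of the eye field, gave 43.3, 18.9, 19.8, 19.8 and 20.6 CPM in DMSO and 6.20, 8.20, 7.30, 5.87 and 6.14 CPM in SFN. DMSO replicate 1 was the highest library, and all SFN libraries were below all DMSO libraries, again as in 11.1% of all genes tested. The log2 fold change of SIX3 was -1.86 ± 0.24 (SE), with an adjusted p of 0.000213, and -1.56 without DMSO replicate 1, both by edgeR.

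The nuclear receptors NR2F1 and NR2F2, also known as COUP-TFI and COUP-TFII and active in the optic vesicle, were the most abundant of these factors. NR2F1 went from 156 ± 25 to 79.4 ± 7.54 CPM (SD, n = 5), a log2 fold change of -0.98 ± 0.12 (SE) with an adjusted p of 0.000164 by edgeR's quasi-likelihood test. NR2F2 had 503 CPM in DMSO replicate 1, 177 to 196 CPM in the other 4 DMSO libraries and 77.5 to 101 CPM in SFN. Its log2 fold change was -1.42 ± 0.28 (SE), with an adjusted p of 0.00345, and -1.01 without DMSO replicate 1, both by edgeR. TFEC, a relative of MITF expressed in the RPE, was the tested factor not called, with a log2 fold change of -0.04 ± 0.35 (SE) and 0.747 to 2.70 CPM over all libraries. The stricter limit of 2-fold was passed by MITF, SOX9, SIX3 and NR2F2 but not by NR2F1 or OTX2.

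**Figure D4:**
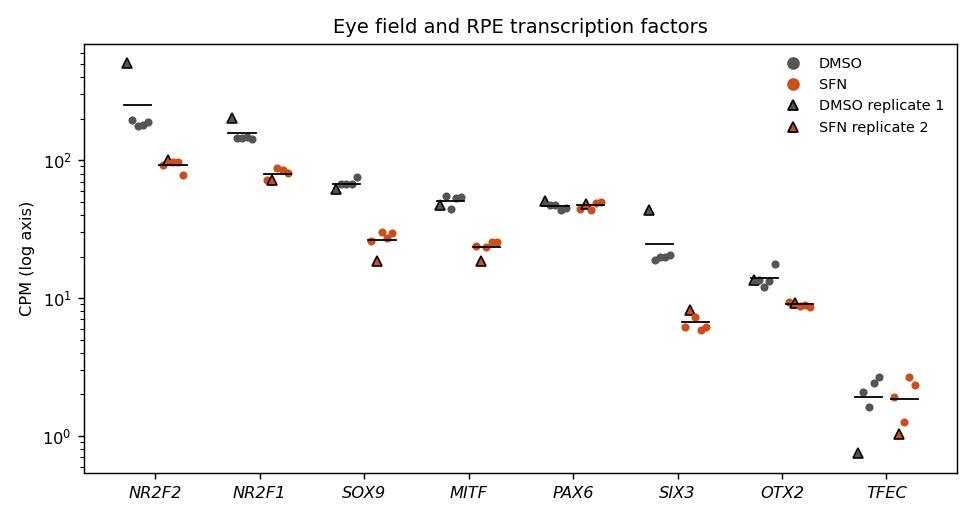
Level of OTX2, PAX6 and 6 further transcription factors of the eye field and RPE in each library, as CPM on a log axis. Points are libraries, with DMSO replicate 1 and SFN replicate 2 as triangles, and bars are group means. In NR2F2, NR2F1, SOX9, MITF, SIX3 and OTX2 all SFN points lie below all DMSO points, as in 11.1% of all genes tested. PAX6 (43.3 to 50.6) and TFEC overlap.

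The genes below these factors in the RPE were measured in separate lists. Of 14 pigment genes, 8 could be tested, and 1 was called higher and 1 lower, against 9.07% and 13.9% of all genes tested. Their median log2 fold change was 0.14. GPR143, a melanosome receptor, went from 8.88 ± 0.545 to 12.4 ± 1.95 CPM (SD, n = 5), a log2 fold change of 0.48 ± 0.13 (SE) with an adjusted p of 0.0177 by edgeR's quasi-likelihood test. MLPH, which links melanosomes to the motor myosin Va, went from 58.1 ± 7.30 to 39.7 ± 2.79 CPM, a log2 fold change of -0.55 ± 0.11 (SE) with an adjusted p of 0.00426 by the same test. Neither gene overlapped between the groups, as in 19.9% of all genes tested in either direction, and RAB27A, the most abundant of the list with 71.9 ± 15.7 CPM in DMSO, had a log2 fold change of -0.02.

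Of 22 genes for transport, phagocytosis and contact with the photoreceptors, 18 had a row and 15 were tested. None was called higher and 1 lower, against 9.07% and 13.9% of all genes tested, with a median of 0.17. That gene was EZR, the ezrin of apical microvilli, which went from 1001 ± 74.8 to 806 ± 31.1 CPM (SD, n = 5), a log2 fold change of -0.31 ± 0.10 (SE) with an adjusted p of 0.0378 by edgeR's quasi-likelihood test. ITGAV, a subunit of the integrin that binds outer segments, had 535 ± 66.1 CPM in DMSO and was not called. When DMSO replicate 1 was left out the list held 2 genes called higher and 2 lower, against 22.5% and 23.5% of all genes tested. The median of the list was then 0.009.

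Of 20 epithelial junction genes, 14 had a row and 8 were tested. Both edgeR and DESeq2 called none of the 8 in either direction, where edgeR called 23.0% of all genes tested. At an unadjusted p under 0.05 in edgeR, 1 was lower. The median log2 fold change of the 8 was -0.26. DSP (desmoplakin), TJP1 (ZO-1) and JUP (plakoglobin), the most abundant, had 402 ± 129.6, 119 ± 33.6 and 15.4 ± 4.68 CPM in DMSO (SD, n = 5). In each of the 3, DMSO replicate 1 was lower than all other DMSO libraries, with 173 CPM of DSP against 429.9 to 486 CPM. Without it, 2 genes of the list were called lower, against 23.5% of all genes tested, and the median of the 8 was -0.38. DSP then had a log2 fold change of -0.58 with an adjusted p of 0.0107 by edgeR.

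Of 19 mesenchymal genes, all had a row and 15 were tested. None was called higher, against 9.07% of all genes tested, and 3 lower, with a median of 0.04. The genes called were the transcription factors TWIST1, SNAI2 and ZEB1, known as drivers of the epithelial-mesenchymal transition, where 13.9% of all genes tested were called lower. Their relatives TWIST2 and ZEB2, with log2 fold changes of -0.47 and -0.21, were not called, nor were the most abundant genes FN1, VIM and SPARC. TWIST1 went from 17.2 ± 1.92 to 6.84 ± 1.06 CPM (SD, n = 5), a log2 fold change of -1.33 ± 0.14 (SE) with an adjusted p of 4.35e-05 by edgeR's quasi-likelihood test. SNAI2 went from 26.4 ± 7.99 to 11.9 ± 1.35 CPM, a log2 fold change of -1.15 ± 0.19 (SE), and ZEB1 from 96.6 ± 11.7 to 48.9 ± 9.66 CPM, a log2 fold change of -0.98 ± 0.15 (SE). TWIST1, SNAI2 and ZEB1 did not overlap between the groups, as in 11.1% of all genes tested in that direction. With DMSO replicate 1 left out, 1 of the 15 genes was called higher and 5 lower, against 22.5% and 23.5% of all genes tested. The median of the 15 genes was then -0.15, so its sign rested on this library. SNAI1, which then passed the filter, was also lower, with a log2 fold change of -1.32 and an adjusted p of 0.00504 by edgeR.

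Across the 11 further lists, 17 of 85 tested genes were called, or 20%, against 23.0% of all genes tested. When DMSO replicate 1 was left out, 33 of the 86 then tested were called, or 38.4%, against 46.1% of all genes tested. For the lists with no gene called higher, the number higher at an unadjusted p under 0.05 in edgeR was 0 for the eye field factors, 0 for retinoid handling, 4 for transport and phagocytosis, 1 for the keratins and 1 for the mesenchymal genes. DESeq2 at an adjusted p under 0.05 gave 0, 0, 2, 0 and 1 for the same lists. Over all 13378 genes tested, 1948 were higher by the first measure and 1635 by the second. No matrix gene was lower by either measure.

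Markers of other cell types of the eye were measured as well. Of 16 photoreceptor and neural retina markers, 8 had no read, among them RCVRN and ARR3, and the summed level was 1.78 to 5.23 CPM in DMSO and 1.97 to 2.85 CPM in SFN. ROM1, the only gene of that list that could be tested, had 1.99 ± 1.47 CPM in DMSO (SD, n = 5) and was not called. Of 9 glial markers, GFAP, AQP4, SLC1A3 and SOX10 had no read, and the summed level of 61.5 to 95.8 CPM in DMSO and 54.1 to 55.7 CPM in SFN came mainly from GLUL, at 74.8 ± 10.7 CPM in DMSO, and MBP, at 10.9 ± 3.46 CPM (SD, n = 5). GLUL had a log2 fold change of -0.60 and MBP of -0.97, with adjusted p of 0.0027 and 0.0106 by edgeR. Of 10 endothelial and blood markers, CLDN5, HBB and HBA1 had no read, none of the others could be tested, and the summed level was 0.181 to 1.37 CPM in DMSO and 0.918 to 2.62 CPM in SFN. CD14 had 3 reads in the DMSO group and 49 in the SFN group. All libraries came from the RPE-1 line, and the source of these reads was not tested.

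Members with a mean level of at least 10 CPM over the 10 libraries were compared with all tested genes. The genes with the most similar pattern were found by Pearson's r of log2 CPM over the same libraries. These values describe libraries that share the division into treatments as well as the libraries that stood apart. VMP1, SKP2 and TIFA were closest to OTX2, with r of 0.98, 0.96 and 0.96. CNN3, PPP3R1 and MRPL3 were closest to EFEMP1, with r of 0.98 for each. For PAX6 the closest were GOLGA8F, BHMT2 and ZNF433-AS1, with r of 0.92, 0.84 and 0.84, and GOLGA8F had a mean of only 0.637 CPM in DMSO.

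The genes closest to BEST1 and to the keratins shared their high values in DMSO replicate 1 and SFN replicate 2. For BEST1 they were AC092069.1, TMEM179B and AC006064.4, with r of 0.98 for each. AC092069.1 had 23.8 CPM in DMSO replicate 1 and 68.2 CPM in SFN replicate 2, against group means of 9.60 and 22.9 CPM. CRELD2 and RPL3 were among the 3 closest to KRT8, with r of 0.99 for each, and SRM, PHB2 and MRPL9 were closest to KRT18, with r of 0.99, 0.98 and 0.97. RPL3, a ribosomal protein gene, had 1275 CPM in DMSO replicate 1 and 1346 CPM in SFN replicate 2, against group means of 871 and 1048 CPM.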

How the data were processed

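RNA of RPE-1 cells was measured in 5 DMSO and 5 SFN libraries. The authors deposited raw read counts per Ensembl gene, with symbols, without normalization and with replicates kept apart. The paper's methods name Lexogen QuantSeq libraries and the Bluebee pipeline, and the submitters' processing notes list FastQC, STAR, featureCounts, edgeR and the builds hg38 and GRCh38. Versions and the use of strand and of molecular identifiers are not given in the sources used here. The authors fitted a mixed model on quantile normalized values with a term for repeated measures, left undefined in the text, and that model was not run here.

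Libraries were filtered with filterByExpr, scaled by TMM and compared with edgeR 4.0.16 (glmQLFit, glmQLFTest, Benjamini-Hochberg adjustment over 13378 genes) in R 4.3.3. Standard errors were taken as the size of the log2 fold change over the square root of F. DESeq2 1.42.0 and limma 3.58.1 (voom, quantile) were alternatives, as were other scalings and filters, a replicate block and leaving out libraries. The median log2 fold change of all genes tested was -0.03, and -0.11 with scaling by library size alone. Members below the filter with at least 10 reads were tested by exact permutation. The fit was tested on simulated data. A count of 0 over a group allows a level of up to 0.0345 (DMSO) or 0.0412 (SFN) CPM, which is 3 reads over the group total. Replicates were all distinct, with a chi-square per degree of freedom of at least 3.50 between them. It was 232 to 243 between DMSO replicate 1 and the other DMSO libraries, and at most 67.7 in any other pair within a group.

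GENCODE 44 (GRCh38) held 28145 of the 28380 identifiers and gave positions, exons and transcript lengths. Upstream sequences are from RefSeq (GRCh38.p14). The members, the 11 further gene lists (179 genes) and the motifs were chosen with earlier results of these data known. Named genes are the members, the up to 3 most abundant and up to 4 most changed called genes of each list, genes overlapping a member, keratin pseudogenes, and the 3 genes most like each member of at least 10 CPM. A few genes that this rule names are not reported here. The genes of lists named as without a read or with few reads, and TFEC, TWIST2 and ZEB2, are outside that rule and were chosen after their values were seen.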

Additional observations from a re-analysis of the deposited data

Results flagged for a closer look

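In each group of 5 libraries, the gap between the highest or lowest library and its nearest neighbour was divided by the range of the group, and gaps above Dixon's critical value of 0.71 were noted. Of 98 groups examined, 23 passed, where chance gives about 4.9, and 18 of the 23 were in DMSO replicate 1. No cause was tested.

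Among the members, OTX2 was high in DMSO replicate 5 (gap 0.733), with 17.7 CPM against 12.1 to 13.6 CPM. BEST1 was high in SFN replicate 2 (0.841), with 107 CPM against 19.4 to 33.4 CPM, and so was its count as a percentage of FTH1 (0.813), with 2.41% against 0.861% to 1.15%. KRT8 was high in DMSO replicate 1 (0.720), with 531 CPM against 316 to 376 CPM, as were FTH1 (0.952), with 4119 CPM against 1807 to 1917 CPM, and the ratio of KRT8 to KRT18 reads (0.718), with 2.21 against 1.82 to 1.93.

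Among the eye field factors, DMSO replicate 1 was high for NR2F2 (0.940), NR2F1 (0.933) and SIX3 (0.929). It was also high for RDH11 (0.958), KRT7 (0.853) and PECAM1 (0.837), the last at 0.560 CPM against at most 0.0911 CPM. It was low for RARB (0.740), ITGAV (0.711), KRT80 (0.786), DSP (0.821), TJP1 (0.906), JUP (0.840), FN1 (0.872), MMP2 (0.832) and GLUL (0.772). FN1 had 3907 CPM there against 9183 to 9958 CPM in the other DMSO libraries. VIM was high in SFN replicate 2 (0.762), with 8567 CPM against 5762 to 6429.8 CPM, and SPARC was high in DMSO replicate 3 (0.760), with 767 CPM against 629 to 662 CPM.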

How the results depend on the processing

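The count of called members was 2 in the reported fit. It was 1 (OTX2) with scaling by library size alone, with no low-count filter and with the replicate block, and 4 (with BEST1 and KRT8) without DMSO replicate 1, also when SFN replicate 2 was left out as well, an alternative added after seeing the data. Of all genes tested, 23.0% were called in the reported fit, 46.1% without DMSO replicate 1 and 6379 of 13415 without both libraries. Leaving out each replicate in turn gave 2 to 4 called members. OTX2 was called in 19 of 19 alternatives, with adjusted p from 4.26e-05 (DESeq2) to 0.0215, EFEMP1 in 16, BEST1 in 2, KRT8 in 2 of 20 and KRT18 in none of 20. The count over the further lists was 17 (3 higher, 14 lower), became 33 without DMSO replicate 1 (13 higher, 20 lower) and 34 without both libraries (16 higher, 18 lower), and ranged from 15 to 33 when each replicate was left out. It was 22 with DESeq2 (8 higher) and 14 with the replicate block (1 higher).

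The sign of PAX6 turned with upper quartile scaling (-0.026), library size alone (-0.073), limma-voom (-0.0033) and no low-count filter (-0.00070), and it ranged from -0.018 to 0.039 when each replicate was left out, below 0 without replicate 4 or 5 of either group. The sign of TIMP3 turned with limma-voom (0.089). Neither gene was called anywhere. The cause was not tested.

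Whether the replicate numbers pair the libraries was not settled. Deviations from the group means correlated at -0.267 to 0.484 between libraries of the same number, over 0.1 in 1 of 5 pairs. Of 5 DMSO libraries, 1 correlated best with its own number. This check cannot decide on pairing, since deviations within a group cancel out and DMSO replicate 1 stood apart. With SFN replicate 5, DMSO replicates 2 to 5 correlated at 0.355 to 0.501 and DMSO replicate 1 at -0.623. With the replicate block, 2441 genes were called instead of 3076, and members fell to 1 called. Levels of the members in DMSO moved by less than 1 SD in 60 of 60 alternatives, and RLBP1 was past no threshold in 11 of 11. Depth limits RPE65, RLBP1 and SERPINF1, with 5, 12 and 2 reads in the 10 libraries.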

Other observations

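Some factors of the lists had too few reads for the fit and were chosen here after their values were seen. OTX1, the paralogue of OTX2, had 13, 14, 7, 23 and 18 reads in the DMSO libraries 1 to 5 and 1, 0, 0, 1 and 1 reads in the SFN libraries. LHX2, an eye field homeodomain factor, had 23 reads in the DMSO group and 3 in the SFN group, and SNAI1, a relative of SNAI2, had 90 and 31. CD14, a lipopolysaccharide co-receptor best known from monocytes, went the other way, with 2, 1, 0, 0 and 0 reads in DMSO and 18, 7, 9, 11 and 4 reads in SFN.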
